A study of Equus asinus with 3 samples.

Results

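The late round spermatids described here were 2195 cell barcodes of a donkey (Equus asinus) testis library, out of 8610 barcodes in that library (25.5%, exact 95% interval 24.6 to 26.4) and 27699 in the series. They were chosen by 2 scores, each a percentage of all unique molecular identifiers (UMIs, counted RNA molecules) of a barcode. The S score summed HMGB4, AKAP4, AKAP3, AK1 and ACTL7A, genes switched on in round spermatids, and had to be 0.15% or more. The P score summed the transition protein genes TNP1 and TNP2 and the protamine gene PRM2, and had to be under 0.15%. Because measured values chose the members, every contrast with other testis barcodes below is a description and carries no test.

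The study took testis and epididymis from 3 sexually mature male donkeys and made droplet-based single-cell libraries, 1 each from testis, epididymal caput and epididymal corpus. The labels call the testis cells germ cells and the epididymal cells somatic cells, and they name no treatment, strain, exact age or donkey for any library. With 1 library per tissue there was no replicate, so intervals are 95%, exact, and cover counting error only. Names in the files number the cells of each library and hold no barcode sequence, so barcodes shared between libraries could not be counted.

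Round spermatids are the haploid cells that follow the second meiotic division. In their later steps the Golgi-derived acrosome spreads over the nucleus, the axoneme of the tail grows out, and large stores of mRNA are made and held for translation after transcription stops. Histones are then replaced by transition proteins and finally by protamines while the nucleus elongates.

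The members held 12383047 UMIs in all. A member had a median of 4940 UMIs, with a range of 1816 to 27750, and a median of 2579 genes. The S score ran from 0.1501% to 0.664% with a median of 0.253%, which corresponded to a median of 13 UMIs and at least 3 UMIs on the 5 S genes. The P score had a median of 0.0430%, and 437 members (19.9%) had no UMI on any P gene. Members were set beside 4 other groups of testis barcodes cut from the same scores. The lowest-S barcodes (S under 0.05%, P under 0.15%) numbered 3427, and the lower-S barcodes (S of 0.05% to under 0.15%, P under 0.15%) numbered 1834. The low-P barcodes (P of 0.15% to under 1%) numbered 991, of which 958 also had an S of 0.15% or more, and the high-P barcodes (P of 1% or more) numbered 163. A score range is not a cell type: 235 members lay within 0.02 percentage points above the S threshold and 275 barcodes within 0.02 below it, while 118 members lay just under the P threshold and 119 barcodes just over it. Levels are given in CPM, the counts of a set scaled to a sum of 1000000. Just inside and just outside the S threshold, SPACA1 was at 813 and 738, EQTN at 186 and 173, and LYZL4 at 185 and 148. Just inside and just outside the P threshold, the same genes were at 1330 and 1286, 371 and 468, and 491 and 521.

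**Figure D1:**
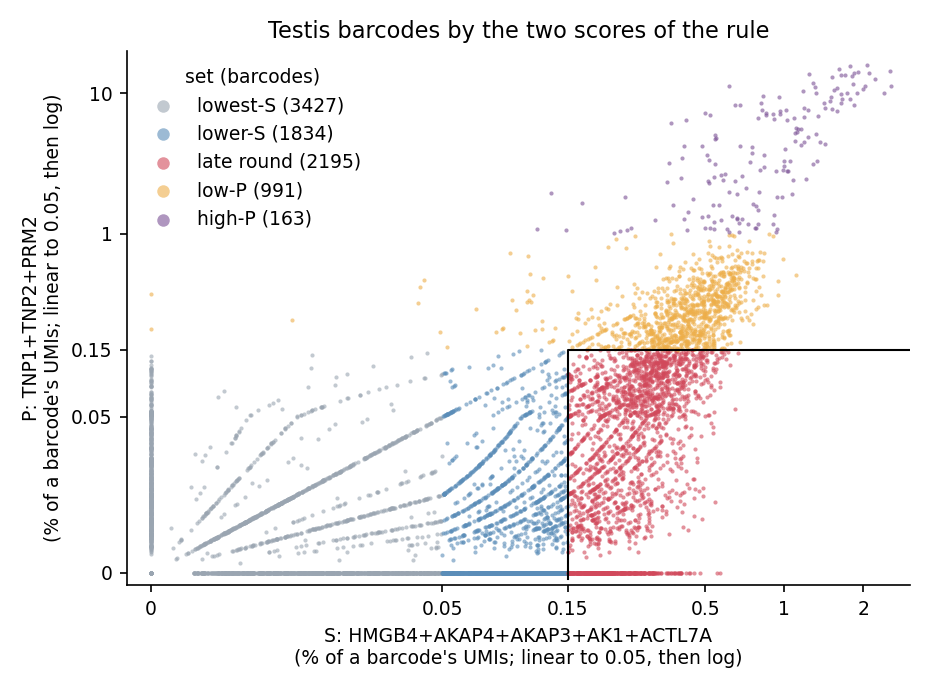
Each point is 1 testis barcode, with its S score on the horizontal and its P score on the vertical axis (both in percent of its UMIs, linear to 0.05 and logarithmic above), coloured by set. The black line bounds the 2195 late round members, which join the lower-S and low-P barcodes without a gap.

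The markers of this stage that the rule did not use were present in the members. SPACA1, an acrosomal membrane protein that shapes the acrosome, stood at 213 CPM in lowest-S, 584 in lower-S, 991 in late round, 1364 in low-P and 545 in high-P barcodes. EQTN, the acrosomal membrane protein equatorin, took the values 21.1, 118, 283, 493 and 262 CPM in the same order. LYZL4, an acrosomal lysozyme-like protein, took 12.3, 84.5, 322, 531 and 144 CPM. All 3 genes were thus higher in the members than in lower-S barcodes, highest in low-P barcodes and lower again in high-P barcodes. The other named markers belong to the rule: AKAP3, an anchoring protein of the fibrous sheath, was at 194 CPM and ACTL7A, an actin-like protein beneath the acrosome, at 96.6 CPM in the members.

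Free RNA sets a background in droplet libraries, and it was read in 56 testis barcodes with 1% or more of their UMIs on stromal and myoid markers (median 2070.5 UMIs, against 4940 in the members). With every barcode thinned to 1800 UMIs, SPACA1 had a UMI in 82.6% of members (81.0 to 84.2; 96.3% before thinning) and in 16.1% of stromal barcodes. EQTN had one in 38.8% of members (69.3% unthinned) and 5.36% of stromal barcodes. LYZL4 had one in 40.6% of members (71.7% unthinned) and 0 of 56 stromal barcodes, which allows a share of up to 5.36% (3 counts of 56). These 3 markers were therefore above background in the members. The P genes, which the rule keeps low, were close to or under it: TNP1 had a UMI in 45.1% of thinned members and 41.1% of stromal barcodes (28.1 to 55.0), PRM2 in 17.6% of members and 14 of 56 stromal barcodes, and TNP2 in 1.23% and 10.7%. In CPM, PRM2 was at 121 in the members and 189 in stromal barcodes, and TNP2 at 8.08 and 71.0. The level of TNP2 in the members is accordingly read as background and not as expression. The member shares of TNP1 and PRM2 were not above the stromal intervals, but they were above the 16.1% and 8.12% of lower-S barcodes (34.6% and 19.7% unthinned, against 73.0% and 40.3% of members). In lowest-S barcodes, which have the same P limit, the thinned shares were 11.99% for TNP1 and 7.21% for PRM2, also under those of the members. Whether the member UMIs of these 2 genes came from transcription or from free RNA was not tested.

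Somatic markers were scarce in the members. The Sertoli list had 0.00225% of member UMIs, with AMH, INHBB and SHBG at 0 among 15 measured genes, and the Leydig list 0.0113%. In lower-S barcodes these lists had 0.00251% and 0.00939%, and in stromal barcodes 0.0245% and 0.00868%. The Leydig share was thus not lower in the members. The stromal and myoid list took 0.00999% of member UMIs, against 0.0157% in lower-S and 2.16% in stromal barcodes. The leukocyte list took 0.00502%, with CSF1R and C1QB at 0, and the endothelial list 0.00294%, with CLDN5 at 0. The endothelial share was 0.00248% in lower-S and 0.0126% in stromal barcodes, so it was not lower in the members than in lower-S barcodes. No member reached 1% on the stromal or the leukocyte list, but 20 lower-S, 43 lowest-S and 6 low-P barcodes did. The list of elongating spermatid markers took 0.0424% of UMIs in lower-S, 0.132% in late round, 0.306% in low-P and 1.03% in high-P barcodes outside the rule genes, and 4 of its 7 compared genes were called higher in the members by the rule given below (GAPDHS, ODF1, PRM3 and TXNDC8). Doublet calling marked 27 members (1.23%), against 33 lower-S (1.80%), 17 low-P (1.72%) and 5 lowest-S barcodes (0.146%).

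The most abundant transcripts of the members were shared with their neighbours. UBB, which encodes ubiquitin, was at 7791 CPM, SPA17, an anchoring-domain protein of the sperm tail, at 7647 and the beta tubulin TUBB4B at 6259.6. SPA17 had at least 1 UMI in all 2195 members, but also in 85.7% of stromal barcodes (91.1% unthinned), and its level in lower-S barcodes was 7689.7 CPM, a ratio of 0.994. CALM3, a calmodulin gene, followed at 5733 CPM, the mRNA-storing Y-box protein gene YBX3 at 4564, and the germ cell chaperone calmegin, CLGN, at 4286. Of the 15 genes with most UMIs in the members, none passed the call rule used next. FAM229B, another of them, stood at 1806 CPM in lowest-S, 1934 in lower-S, 2368 in late round, 2914 in low-P and 3000.2 in high-P barcodes.

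A gene was called when its whole ratio interval lay beyond 2-fold and its higher side had at least 50 UMIs, with the 8 rule genes left out. Against lower-S barcodes, 1548 of 13103 genes were called higher in the members (11.8%) and 180 lower (1.37%). Against the members, low-P barcodes had 821 of 12243 genes called higher (6.71%) and 97 lower (0.792%). The rule used both contrasts, so these shares are a background for the lists below and nothing more. The lists hold genes with a symbol, for which the shares of such genes are the closer background. Among genes with a symbol, 520 of 9190 were called higher and 159 lower in the members. In low-P barcodes 372 of 8590 were called higher and 75 lower. Protein-coding genes had 5.77% and 4.45% called higher in the 2 contrasts. The median log2 ratio over all genes compared was -0.02 for members over lower-S and -0.15 for low-P over members. The low-P comparison uses the members again, so the 2 sets of ratios are not independent.

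ODF3, a protein of the sperm tail, led the genes with a symbol that were higher in the members, ranked by the end of the ratio interval nearest to 1: it stood at 57.0 CPM against 5.35 in lower-S barcodes, a ratio of 10.7 (8.04 to 14.4), and at 175 CPM in low-P barcodes. PRSS55, a membrane-anchored serine protease of spermatids, was at 72.2 CPM against 10.2 (7.09-fold, 5.76 to 8.82). SAXO1, which stabilises ciliary microtubules, was at 92.4 against 13.5 CPM (6.86-fold, 5.72 to 8.28). With every barcode at one depth, ODF3 had a UMI in 8.79% of members, 1.04% of lower-S, 24.2% of low-P and 1.79% of stromal barcodes (23.6%, 2.62%, 51.4% and 1.79% unthinned). The other 9 genes of the leading 12 were MS4A6A, ADRA1D, TMEM191C, DDO, ACOT4, PLCZ1, TMEM81, IZUMO1 and FABP12, with ratios of 5.71 to 10.1. They include an adrenergic receptor gene (ADRA1D, 12.8 against 1.34 CPM) and D-aspartate oxidase (DDO, 16.1 against 1.95 CPM).

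Genes of the acrosome and of sperm-egg fusion were called higher in 11 of 29 compared members of their list and lower in 0, with a median log2 ratio of 0.80. IZUMO1, the sperm surface ligand that binds the egg, was at 4.16 CPM in lowest-S, 16.0 in lower-S, 91.9 in late round, 239 in low-P and 113 in high-P barcodes. TMEM81, a membrane partner of IZUMO1, was at 45.3 CPM in the members against 7.10 in lower-S barcodes (6.38-fold, 4.97 to 8.32). SPACA6, the other partner, was at 12.6 against 1.65 CPM (7.66-fold, 4.57 to 13.7). The remaining calls were EQTN, IZUMO2, LYZL4, LYZL6, SPACA3, SPACA4, SPACA7 and TMEM190. The most abundant genes of the same list did not follow them: the equatorial segment gene SPESP1 was at 1081 CPM against 1254 in lower-S barcodes, and IZUMO4 at 1055 against 1316. SPACA1 itself had a ratio of 1.70 (1.65 to 1.75) and was not called. From members to low-P barcodes only IZUMO1 and SPACA6 of 29 passed, at 2.60-fold and 2.67-fold.

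The actin-like and theca genes, which build the cytoskeletal layer between acrosome and nucleus, had 7 of 11 called higher and 0 lower, with a median log2 ratio of 1.16. ACTRT2, an actin-related protein of the theca, was at 12.3, 59.5, 221, 434 and 632 CPM from lowest-S to high-P barcodes. PLCZ1, the phospholipase that activates the egg, was at 137 CPM in the members against 24.1 (5.71-fold, 4.97 to 6.57), and its level in stromal barcodes was 47.3 CPM. CAPZA3, a capping protein of actin filaments, was at 80.7 against 15.0 CPM (5.37-fold, 4.51 to 6.44). CYLC1, an X-linked cylicin of the theca, was at 187 against 68.9 CPM, and ACTL7B, the close relative of ACTL7A, at 417 against 198 CPM. SPEM1, which acts in the removal of cytoplasm, was at 1.62 CPM in the members and 7.89 (1 UMI) in stromal barcodes. It had too few UMIs to be compared between lower-S barcodes and members, and it was called higher in low-P barcodes, at 21.1 CPM.

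**Figure D2:**
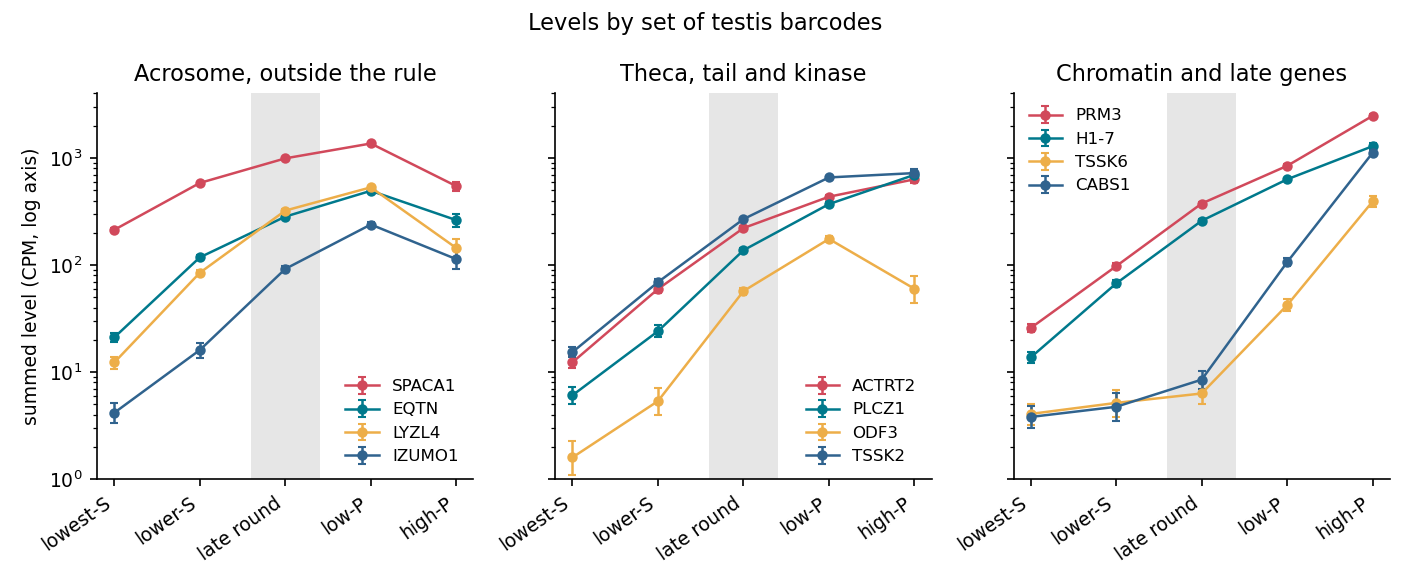
Summed levels (CPM, logarithmic axis) of 12 genes in the 5 sets of testis barcodes, with bars for exact Poisson 95% intervals and the members shaded. IZUMO1 and ODF3 are above their lower-S levels in the members and peak in low-P barcodes, while TSSK6 and CABS1 are at 6.30 and 8.48 CPM in the members and at 42.1 and 106 CPM in low-P barcodes.

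Tail genes were compared as separate lists. The fibrous sheath and outer dense fibre list holds 2 rule genes, left out here, and the axoneme list 0. A contrast between these lists is therefore not independent of the rule. For the fibrous sheath and outer dense fibres, 5 of 18 genes were called higher and 0 lower, with a median log2 ratio of 0.37. ODF1, a main protein of the outer dense fibres, was at 466 CPM in the members against 183 (2.55-fold, 2.42 to 2.69), and CBY2 at 71.3 against 16.8 CPM. CABYR and ROPN1L, calcium-binding and anchoring proteins of the fibrous sheath, were at 2679 and 1609 CPM in the members and at 2498 and 1549 in lower-S barcodes. For the axoneme, the microtubule core of the tail, 3 of 81 genes were called higher and 0 lower, with a median log2 ratio of -0.12. CFAP97D1 was the largest of these at 205 against 46.0 CPM (4.47-fold, 4.04 to 4.95), followed by SPATA45 and CFAP95. In the step to low-P barcodes the axonemal genes DNAI2, a dynein intermediate chain, and CFAP52 were called lower, by 2.35-fold (2.07 to 2.66) and 2.36-fold (2.06 to 2.70), and CFAP97D1 was called higher.

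The manchette, the microtubule skirt that shapes the nucleus, and the head-tail junction were represented by 48 compared genes, of which 4 were called higher and 1 lower. SUN5, which anchors the tail to the nuclear envelope, was at 63.1 CPM in the members against 11.3 (5.58-fold, 4.56 to 6.87). KIF2B, a kinesin, was at 98.8 against 22.8 CPM, and SUN3 and PMFBP1 were the other calls. CCDC38 was called lower, at 33.7 against 87.9 CPM (2.61-fold, 2.32 to 2.94). HOOK1, a linker of the manchette, was at 27.1 CPM in lower-S, 36.7 in late round and 121 in low-P barcodes, and it was called only in the later step (3.31-fold, 2.93 to 3.74).

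The kinase list held testis-specific serine kinases, their partners and the further kinases CAMK4, STK35 and CSNK1G2. Of its 10 compared genes, 5 were called higher in the members and 0 lower, with a median log2 ratio of 1.05. TSSK2 was at 268 against 69.1 CPM (3.88-fold, 3.57 to 4.22) and TSSK1B at 257 against 115. TSKS, their shared substrate, was at 69.7 against 22.9 CPM, and CAMK4, a calmodulin-dependent kinase, at 591 against 232. TSSK6, a kinase needed for histone removal, was at 6.30 CPM in the members against 5.14 in lower-S and 7.89 (1 UMI) in stromal barcodes. It had a UMI in 1.37% of thinned members and in 1 of 56 stromal barcodes (1.79%, 0.0452 to 9.55). The member share was thus not above background, though 1 stromal barcode sets that background poorly. TSSK6 reached 42.1 CPM in low-P barcodes.

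Among chromatin genes of spermatids, 4 of 26 were called higher and 0 lower, with a median log2 ratio near 0. The 4 were PRM3 (375 against 97.4 CPM), a protamine-family gene, the spermatid linker histone gene H1-7 (259 against 67.2), the chromodomain remodeller CHD5 (17.3 against 4.83) and CDYL2. PRM3 and H1-7 were each at 7.89 CPM (1 UMI) in stromal barcodes, far under their level in the members, unlike the P genes. The replacement histone genes H3-3B and H3-3A were at 1893 and 717 CPM in the members, with ratios of 1.22 and 1.28, and the bromodomain gene BRDT was at 960.3 CPM. The feature named H1-6, another linker histone gene, was at 0 in the members. Many features carry only a locus identifier, so a count of 0 under this name is not read as absence of expression. CDYL, a chromodomain protein linked to histone acetylation, was at 24.0 CPM in the members and 125 in low-P barcodes (5.22-fold).

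Of 23 regulators of spermatid transcription, 2 were called higher and 0 lower, with a median log2 ratio of -0.08. SOX5 was at 226 against 68.9 CPM (3.28-fold, 3.02 to 3.58) and the kinesin KIF17, which carries a coactivator of CREM, at 82.5 CPM in the members (2.36-fold, 2.09 to 2.68). CREM itself, the activator of many spermatid genes, was at 775 CPM against 649. FHL5, the coactivator named ACT, was at 7.35 CPM in the members and 56.2 in low-P barcodes (7.65-fold, 6.03 to 9.78). In the list for RNA storage and translation, 1 of 46 genes was called higher (CARHSP1, 160.1 against 51.9 CPM) and 1 lower. The lower one was HENMT1, the methyltransferase of piRNAs, at 5.01 CPM against 20.8 in lower-S and 122 in lowest-S barcodes.

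Genes of meiotic division were more often called lower than higher. Of 44 compared, 12 were called lower and 1 higher, and the median log2 ratio was -0.66. CKS2, a partner of cyclin-dependent kinases, was at 569 CPM in lowest-S, 129.8 in lower-S and 35.7 in late round barcodes, 3.64-fold lower in the last step (3.26 to 4.06). NUF2, a kinetochore protein, was at 12.8 against 45.4 CPM. AURKA, a spindle kinase, was at 289 against 607 CPM, and it was lower again, by 2.21-fold (2.04 to 2.41), in low-P barcodes. The other lower calls were BIRC5, BUB1B, CCNB1, CDK1, CKS1B, INCENP, PRC1, PTTG1 and TOP2A. NDC80, the direct kinetochore partner of NUF2, went the other way: it was at 146 CPM in lower-S and 470.0 in late round barcodes (3.23-fold, 3.04 to 3.42), then 844 in low-P and 118 in high-P barcodes.

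Transcripts of meiotic prophase were present in the members. Of 32 genes, 1 was called higher and 0 lower, with a median log2 ratio of -0.24. SYCE2, of the synaptonemal complex, was at 1599 CPM in the members against 1803 in lower-S and 221 in stromal barcodes, and SYCP1 at 318 against 394. SYCP3 went the other way with a log2 ratio of 0.931, though it was not called. It had a UMI in 10.9% of thinned lower-S barcodes and 17.9% of members. The call was REC8, a meiotic cohesin, at 57.9 against 15.9 CPM (3.63-fold, 3.05 to 4.35). Of 8 compared spermatogonial genes, 2 were called higher at low levels: the RNA-binding LIN28A was at 14.4 against 2.47 CPM and the deubiquitinase UCHL1 at 9.04 against 2.16, the latter under its stromal level of 55.2 CPM. For the broader list of spermatocyte markers, the share of UMIs was 0.432% in lowest-S, 0.353% in lower-S, 0.258% in late round and 0.172% in low-P barcodes.

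**Figure D3:**
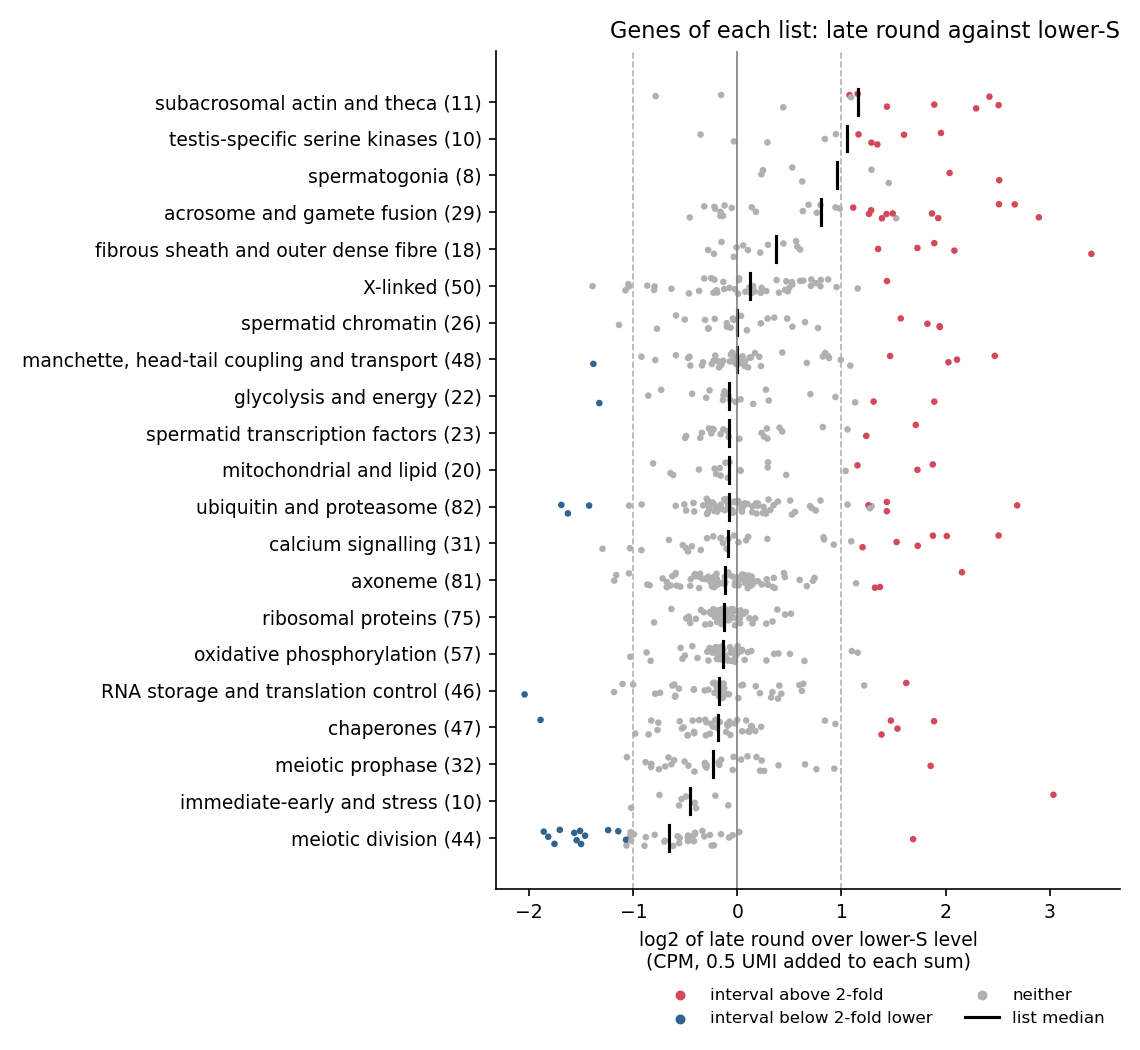
Each point is 1 gene of a list, placed by its log2 ratio of member to lower-S level, with black bars for list medians and the number of genes compared in brackets. The theca, kinase and acrosome lists have medians of 1.16, 1.05 and 0.80, and the meiotic division list one of -0.66 with NDC80 alone among its calls to the right.

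The 12 leading genes with lower levels in the members were CST3, EIF2B2, PEBP1, FLCN, SLC2A8, PSMD10, SMO, CKS2, HENMT1, FAM118B, MVK and CIAPIN1. PEBP1, an inhibitor of the RAF kinase, was at 978 CPM in lowest-S, 479 in lower-S and 119 in late round barcodes (4.04-fold lower in the last step, 3.81 to 4.29). EIF2B2, a subunit of a translation initiation factor, was at 13.2 against 62.7 CPM and the glucose transporter gene SLC2A8 at 18.5 against 75.4. CST3, a secreted cystatin, was at 8.40 against 50.3 CPM, but without the stromal and leukocyte barcodes the lower-S level was 9.19 CPM and the gene was not called. The same held for ACTA2, COL1A2, DCN, VIM and CD74, all called lower in full sums and none without those barcodes (DCN then at 15.5 against 12.9 CPM). Without those barcodes 160 genes were lower, and 157 of the 180 were still among them, including the other 11 of the leading 12.

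Calcium signalling genes had 6 of 31 called higher, among them CATSPER3 of the sperm calcium channel, its auxiliary genes EFCAB9, TMEM249 and TMEM262, and PLCZ1. TMEM249 was at 70.3 against 17.4 CPM (4.04-fold, 3.42 to 4.80). The list's median log2 ratio was -0.09, and its abundant genes were not called, such as PPP3R2, a testis calcineurin subunit (1935 against 2164 CPM), and the centrin gene CETN1 (1467 against 1873). In energy metabolism, GAPDHS, the sperm glycolytic dehydrogenase, was at 181 against 48.8 CPM (3.71-fold, 3.36 to 4.11) and the monocarboxylate transporter SLC16A7 at 56.1 against 22.6. The glucose transporter SLC2A3 was at 76.6 against 192 CPM, 2.51-fold lower (2.32 to 2.72). No gene of 57 for oxidative phosphorylation or of 75 for ribosomal proteins was called in either direction, with median log2 ratios of -0.14 and -0.13.

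Protein turnover and folding had a few calls each. In the ubiquitin and proteasome list 4 of 82 genes were called higher and 3 lower. KLHL10, the adaptor of the CUL3 ubiquitin ligase in spermatids, was at 518 against 191 CPM (2.71-fold, 2.57 to 2.85), and UBE2T, a conjugating enzyme, at 34.6 against 107. Among chaperones 4 of 47 were called higher and 1 lower, the lower one being RCN2 (5.65 against 21.1 CPM). DNAJB3, a testis DNAJ protein, was at 278 against 95.5 CPM and DNAJB8 at 32.5 against 8.74. HSP90AA1, the inducible cytosolic HSP90, was at 4029, 3149.9, 1859.9, 862 and 889 CPM from lowest-S to high-P barcodes. It was not called between lower-S barcodes and members but was lower in low-P barcodes by 2.16-fold (2.09 to 2.23), as was its cochaperone PTGES3 by 2.80-fold (2.52 to 3.13).

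In the step from members to low-P barcodes, the leading genes were low in the members. DNAJB7 was at 2.99 CPM in the members and 66.2 in low-P barcodes (22.1-fold, 15.8 to 32.0). Its 7.89 CPM in stromal barcodes was 1 UMI, too few to rank against the member level. CABS1, a calcium-binding protein of elongating spermatids, was at 8.48 and 106 CPM (12.5-fold, 10.2 to 15.6), and BPIFA3 at 5.33 and 89.3 (16.8-fold). The other leading genes were FAM71A, C20H11orf42, SCP2D1, FNDC8, CUNH22orf46, GLUL, ASB5, CORO2A and C2H10orf120, of which FNDC8 had 4 UMIs in all members. Genes leading the other direction included SLX4, a scaffold of DNA repair nucleases (187 CPM in members, 55.1 in low-P barcodes, 3.39-fold, 3.00 to 3.84), IL23A, LSM10, KIF22, PLG, PFN2, BORCS5, C27H8orf48, PTGES3, CWC22 and YIPF5.

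Few genes peaked or dipped in the members among their neighbours. The first step compared 13103 genes (11.8% called higher and 1.37% lower) and the second 12243 (6.71% and 0.792%). Both steps called 353 genes higher and 8 lower, and 0 were called in opposite directions. The members enter both steps and the scores cut every set, so these overlaps are a description only. A softer rule, the whole interval over 1.25-fold above both neighbours, held for 46 genes, over 1.5-fold for 8 and over 2-fold for 0. In the opposite pattern, below both neighbours, the counts were 28, 7 and 0. NUTM1, which recruits histone acetyltransferase in spermatids, was one of the 46, at 63.2 CPM in lower-S, 88.1 in late round and 53.8 in low-P barcodes. MAGEE2, an X-linked MAGE family gene, was at 9.36, 17.3 and 4.70 CPM, and TDP1, a DNA repair phosphodiesterase, at 93.7, 164 and 109.8. PRSS35, a serine protease-like gene, was at 14.9, 34.4 and 13.0 CPM, but at 94.7 CPM in stromal barcodes.

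The X chromosome is silenced in male meiosis and its genes stay low in the cells that follow. Features that RefSeq places on X took 1.03% of member UMIs (1.03 to 1.04), against 0.425% in lowest-S, 0.778% in lower-S, 1.08% in low-P and 1.33% in high-P barcodes. Stromal barcodes had 2.99% and leukocyte barcodes 3.896%. By barcode, the median member had 1.03% and the members ranged from 0.256% to 2.60%, below each of the 14 leukocyte barcodes, whose lowest value was 3.11%, but overlapping the 56 stromal barcodes, which started at 1.59%. Of X-linked genes compared, 24 of 212 (11.3%) were called higher in the members than in lower-S barcodes, and of autosomal genes 597 of 9946 (6.002%). Over all genes compared, including those without a chromosome, the share was 11.8%. In low-P barcodes against members, 3.05% of X-linked and 4.57% of autosomal genes were called higher. Called lower there were 2.03% and 0.877%. The most abundant X-linked genes in the members were UPF3B, a factor of nonsense-mediated decay, at 488 CPM (339 in lower-S and 89.0 in lowest-S barcodes), MAP7D3, a microtubule-associated protein, at 387 and the centrin gene CETN2 at 329.

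**Figure D4:**
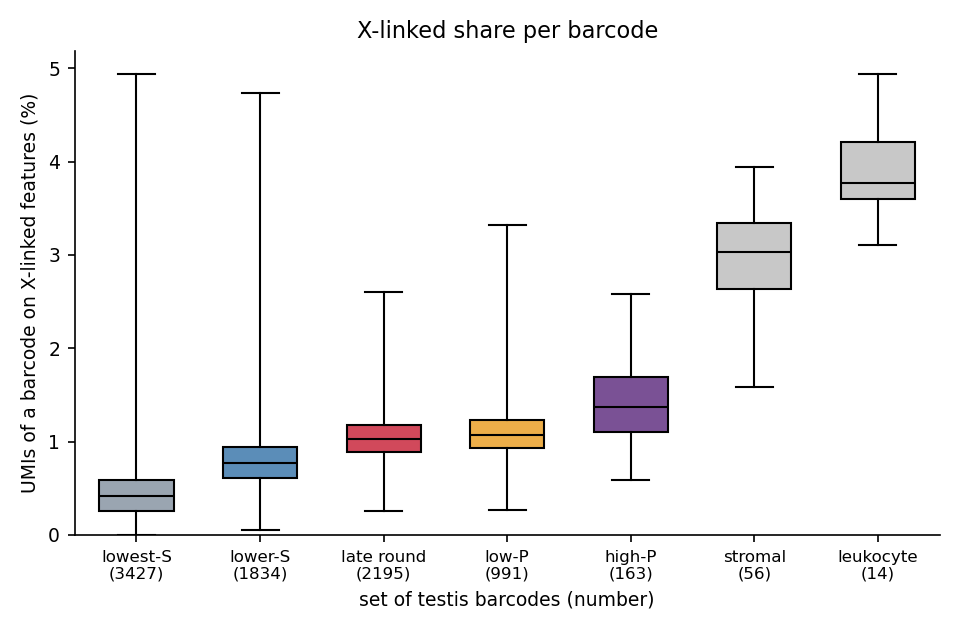
Percentage of each barcode's UMIs on X-linked features, by set: boxes span the quartiles, lines inside are medians, and whiskers reach the lowest and highest barcode. The late round median of 1.03% lies above the lower-S median of 0.772% and under the stromal median of 3.03%.

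Many of the called genes have no symbol. Features of the files that are absent from the RefSeq gene table (10394, of which 9974 are bare locus identifiers) took 6.31% of UMIs in lowest-S, 7.38% in lower-S, 10.1% in late round, 12.9% in low-P and 13.4% in high-P barcodes, against 3.88% in stromal barcodes. They made up 927 of the 1548 genes called higher in the members: 31.6% of the 2937 compared, where protein-coding genes of the table had 5.77% called and long non-coding RNAs 11.3%. Of the 180 genes called lower, 6 were of this kind. Which loci they are was not analysed here.

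The members also differed among themselves. They were divided by S into a low, a middle and a high group (732, 732 and 731 barcodes), with median P of 0.0226%, 0.0396% and 0.0788% and median depths of 4762.5, 5079 and 4942 UMIs. Between the high and the low group, 251 of 9086 genes (2.76%) were called higher and 35 (0.385%) lower, again inside a split made by the rule's own score. DSE, an epimerase of dermatan sulfate, stood at 11.4 CPM in the low and 53.0 in the high group (4.64-fold, 3.36 to 6.53), and GLIPR1 at 66.3, 130.3 and 236. LYZL4 was at 222, 316 and 427 CPM and EQTN at 211, 274 and 363, whereas SPACA1 differed less (865, 940.3 and 1169 CPM). SPA17 was level at 7670.1, 7616 and 7657 CPM. In the other direction the endoplasmic reticulum chaperone HYOU1 was at 64.5, 36.4 and 17.8 CPM, the lysosome-positioning gene BLOC1S2 at 49.9, 23.5 and 11.2, and HSP90AA1 at 2351, 1882 and 1354.

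A principal component analysis of the 2195 members at 1800 UMIs each, with the rule genes left out of 5370 genes, gave a first component with 1.09% of the variance and a second with 0.384%. Across barcodes of this 1 library, the first component had a Spearman correlation of 0.636 with S, 0.685 with P and 0.0113 with UMIs per barcode. Its positive end was led by GALNTL5, a Golgi-type glycosyltransferase of spermatids, with PRM3, KLHL10, SPATA19 and NDC80, and its negative end by DBF4, RPA2, HSP90AA1 and AURKA. At the same depth a member had a median of 1260 genes, against 1208 in lower-S, 1284 in low-P and 1126 in high-P barcodes.

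**Figure D5:**
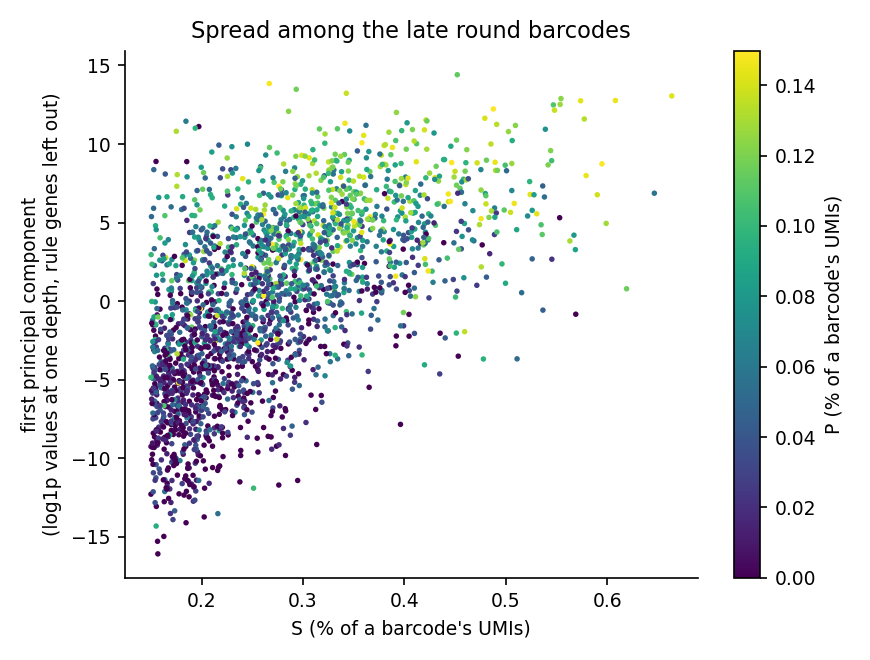
The first principal component of the 2195 late round barcodes (values thinned to one depth, rule genes left out) against S (percent of UMIs), coloured by P (percent of UMIs). Barcodes spread continuously, with a Spearman correlation of 0.636 between the component and S.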

How the data were processed

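Deposited values were raw UMI counts per gene and cell, written by PISA 0.12 per the file headers, and the submitters' processing notes name Cell Ranger 2.1.1 without a role; no source used here names the aligner, the annotation or the build. PRM2 and other symbols came through RefSeq locus numbers (706 of 16366 testis locus identifiers). All deposited barcodes were kept, with 1816 UMIs or more each in testis (47686179 in all). Counts were summed per set of barcodes and scaled to CPM, with exact Poisson and conditional binomial intervals (scipy 1.17.1), which treat barcodes of a set as one pool and do not cover variation between animals. List medians add 0.5 UMI to each sum. Scanpy 1.11.5 (Scrublet) marked 82 testis barcodes as doublets (0.952%), which were kept in the main sums. The text names the 12 leading genes with a symbol per direction (1 of them is not reported here), the 15 with most UMIs, up to 4 by level and 2 by ratio per list, the markers and rule genes, and lists by symbol the genes called in a list. A few further genes (H1-6, SYCP3, the genes above both neighbours, genes of the S groups, of the component and of the X chromosome) were chosen after their values were seen. The members and gene lists were chosen with earlier results of these data known. Alternatives changed thresholds, fold, minimum UMIs, scaling, depth, doublets and barcodes whose name suffix was read as several merged beads, which no source states; leaving out PRM2, leaving out stromal and leukocyte barcodes, limiting low-P barcodes by S and the UMI minimum in caput were chosen after seeing the data.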

Additional observations from a re-analysis of the deposited data

Results flagged for a closer look

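The rule was also met in the epididymal caput library, which the comparisons do not use. There 77 of 9478 barcodes had the scores of late round spermatids, and 19 did with at least the 1816 UMIs of the shallowest testis barcode (1457 caput barcodes had that many). Summed over those 19, SPACA1 was at 913 CPM (732 to 1127), EQTN at 241 (153 to 362) and LYZL4 at 441 (318 to 596). These were close to the testis members' 991, 283 and 322 CPM. Caput barcodes with the same minimum of UMIs and an S under 0.05% had 21.2, 5.36 and 3.48 CPM. Other genes were less alike: AKAP4 was at 1008 CPM (816 to 1231) in the 19 against 315 in the testis members. PLCZ1 was at 252 (161 to 375) against 137, and HMGB4 was lower, at 1281 (1064 to 1529) against 1649. SPA17 was at 3832 CPM against 7647 in the testis members, and DEFB119, a defensin that caput barcodes carry at 7042 CPM, was at 797.9 against 3.47. In the corpus library 82 barcodes met the scores, with a median of 1 UMI on the S genes, and 0 had 1816 UMIs. The source of these barcodes was not tested.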

How the results depend on the processing

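The number of members ranged from 1586 (S of 0.20% or more) to 2973 (S of 0.10% or more), and was 2511 with PRM2 left out of P. Counts of called genes moved by over 1.5 times under 3 settings. With S of 0.20% or more, 315 genes were lower in the members than in lower-S barcodes and 48 were lower in low-P barcodes than in members. With the P threshold at 0.30%, these became 286 and 148. With 4-fold in place of 2-fold, 166 genes were higher and 1 lower in the members, and 231 were higher and 1 lower in low-P barcodes. Median-of-ratios scaling, which sets median log2 ratios of -0.0975 (members over lower-S) and -0.0481 (low-P over members) to 0 and so raises every ratio, a minimum of 10 UMIs, sums thinned to one total, and leaving out PRM2, doublets, merged beads, barcodes under 3000 UMIs or stromal and leukocyte barcodes kept all 4 counts within 1.5 times. Limiting low-P barcodes to those with S of 0.15% or more gave 828 higher and 127 lower genes. The caput count fell from 77 to 19 at the testis minimum of UMIs. Of 28 lists, 11 had a higher share of UMIs in members than in lower-S barcodes, 13 outside the rule genes and the 20 most abundant genes, and 12 without doublets. No paired analysis was possible because each tissue has 1 library. At the median member depth an S of 0.15% is 7.41 UMIs, so barcodes near a threshold can fall on either side by counting error.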
